A study of Mus musculus with 4 samples.

Results

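Nonclassical monocytes of the mouse heart were described in 2 CITE-seq libraries, an assay that counts transcripts and antibody-bound oligonucleotide tags in the same cells. They were selected cell by cell on raw counts of UMIs, the molecular barcodes that let each captured molecule be counted once. Barcodes were kept from 200 detected genes upwards if mitochondrial transcripts made up less than 10% of their UMIs, and a kept cell was a member when Ace, Ear2, Treml4 and Cd300e together had at least 2 UMIs and Csf1r, the receptor for CSF1, had at least 1. Members were allowed at most 9 UMIs of C1qa, C1qb and C1qc, which mark macrophages, and at most 2 of the neutrophil genes Csf3r and Retnlg. They were also allowed at most 1 UMI of the T cell genes Cd3d, Cd3e and Cd3g and at most 4 of the B cell genes Cd79a, Cd79b and Ms4a1. The rule took 124 of 6836 kept cells, themselves from 11995 barcodes: 59 members lay in the anti-CD40 library and 65 in the isotype library.

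The anti-CD40 library came from C57BL6J mice treated with an agonist antibody to CD40, a receptor that switches on antigen-presenting cells, and the isotype library from C57BL6J mice treated with Rat IgG antibodies. Each library pooled the hearts of 4 mice, without atria, so each treatment is 1 library and no difference between treatments has a replicate check. The labels state no dose, time after treatment, age or sex. Exact 95% intervals are given for counts, and they hold counting error alone, since differences between animals cannot be seen in pooled hearts. Intervals of ratios treat each UMI as independent, so they also leave out differences between cells.

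Nonclassical monocytes, called patrolling monocytes, stay mainly inside blood vessels and crawl along the endothelium. They arise largely from classical monocytes through a programme that needs the nuclear receptor Nr4a1, and they depend on CX3CR1 and CSF1 signalling to survive. In the mouse they carry little Ly-6C and CCR2, unlike classical monocytes, and much CD43, CD11a and the Fc receptor FcγRIV encoded by Fcgr4. These hearts were perfused with cold PBS before digestion, and how many members came from vessels was not measured.

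The 59 anti-CD40 members held 387020 gene UMIs, with a median of 5687 per cell, against 664781 gene UMIs and a median of 8599 in the 65 isotype members. The deepest anti-CD40 member had 18929 UMIs and the deepest isotype member 52554. Across libraries 13 barcodes were shared, none of them belonging to a member in either. The titles and protocols name a sort on CD45 without DAPI whereas the series text names DRAQ5 without DAPI, and which of these was used cannot be told from the files. No doublet caller was applied, so 2 cells in 1 droplet may be among the deepest members.

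The label was checked on 10 nonclassical monocyte genes that played no part in the selection (Nr4a1, Spn, Cx3cr1, Itgal, Fcgr4, Ceacam1, Eno3, Adgre4, Pou2f2 and Pglyrp1). Members had a median of 6 of these 10 genes in the anti-CD40 library and 7 in the isotype library. Classical monocytes, gated under the same limits on at least 3 UMIs of Ly6c2, Chil3, Vcan and F13a1, at least 1 of Ccr2 and none of the 4 selecting markers, had 3 in the anti-CD40 library and 4 in the isotype library. Macrophages, gated on at least 10 C1q UMIs and at most 1 UMI of the selecting markers, had 4 in the anti-CD40 library and 2 in the isotype library. Neutrophils and NK cells, by gates given below, had medians of 3 in both libraries, with up to 10 genes in a neutrophil and 6 in an NK cell. The genes the label rests on were therefore present, but not in all members to the same degree: 39 of 59 anti-CD40 members and 49 of 65 isotype members had at least 5 of the 10.

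The selecting genes themselves are given as a description. Ace, which encodes angiotensin-converting enzyme, was seen in 43 of 59 anti-CD40 members and 46 of 65 isotype members, and Treml4, a myeloid receptor of the TREM-like family, in 33 and 35. Ear2, an eosinophil-associated ribonuclease, was seen in 29 of 59 anti-CD40 members and 50 of 65 isotype members, and Cd300e, an activating receptor of the CD300 family, in 18 and 19. All 4 genes occurred together in 7 anti-CD40 and 15 isotype members, and these cells held a median of 8 and 10 of the 10 independent markers. Only 1 of the 4 occurred in 21 anti-CD40 and 24 isotype members, with medians of 4 and 3 independent markers and of 7041 and 13796 UMIs. These marker medians lay within the span of the classical monocyte and macrophage medians of the same library, so the check did not set these members apart. Members just inside the marker limit, with 2 UMIs, numbered 13 and 14 and had 4 and 5.5 independent markers. Cells just outside it, with 1 UMI, numbered 42 and 24 and had 4 and 3.

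Some members carried genes of other cell types. At least 3 of 6 fibroblast markers were found in 3 anti-CD40 and 2 isotype members, at least 3 of 6 B cell markers in 0 and 7, at least 3 of 7 conventional dendritic cell markers in 0 and 3, and at least 3 of 8 macrophage markers in 5 and 11. Fibroblast genes summed to 501 UMIs in anti-CD40 members and 461 in isotype members, B cell genes to 12 and 152, and macrophage genes to 113 and 1293. No member had at least 3 markers of neutrophils, T cells, NK cells, cardiomyocytes, erythroid cells or platelets. Classical monocyte genes were the most common: at least 3 of 6 markers were found in 12 anti-CD40 and 17 isotype members. These genes summed to 478 UMIs in anti-CD40 members and 1317 in isotype members. The UMI minimums of the classical gate, Ccr2 included, were met by 7 of 59 anti-CD40 and 19 of 65 isotype members. Those members had medians of 6 independent markers in both libraries, and what they are was not tested. Counting classical monocyte genes too, 18 of 59 anti-CD40 and 32 of 65 isotype members had at least 3 markers of another class. Results that such cells carry are named below.

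Nonclassical monocytes made up 1.38% of kept anti-CD40 cells (59 of 4278, 95% Clopper-Pearson interval 1.05 to 1.78) and 2.54% of kept isotype cells (65 of 2558, 1.97 to 3.23). The share was 1.16 percentage points lower in the anti-CD40 library, expressed as a difference of -1.16 (-1.91 to -0.49). Among mononuclear phagocytes, all kept cells with Csf1r that met the lymphoid and neutrophil limits, the shares were 2.45% in the anti-CD40 library and 6.54% in the isotype library. Macrophages filled 46.1% of kept anti-CD40 cells and 25.6% of kept isotype cells, so every other share of kept cells moves with them. Without members that held at least 3 markers of another class the difference was -0.33 points (-0.91 to 0.17). The direction turned when the C1q limit was lifted, but not when it was raised to 20 UMIs. In the anti-CD40 library 95 cells failed that limit alone, 63 of them with at least 5 independent markers, against 11 such cells, 6 with at least 5 markers, in the isotype library. Just 1 of these cells in each library lay close above the limit, and anti-CD40 macrophages had a median of 4 independent markers. Without the limit the count was 154 cells (3.60%) in the anti-CD40 library and 76 (2.97%) in the isotype library, a difference of 0.63 points (-0.27 to 1.47). In that setting 24 cell cycle genes were measured instead of 4, and 15 of them were at least 2-fold higher. What the added cells are was not tested. C1q transcripts were also found in NK cells, gated on at least 4 UMIs of Ncr1, Klrb1c, Prf1 and Klre1 under the same C1q limit, at a median of 3 UMIs in the anti-CD40 library and 1 in the isotype library. The part of macrophage RNA in the share was not tested.

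Against the other mononuclear phagocytes, members kept the genes known for this monocyte. Of 24 measured genes of a list of nonclassical identity genes outside the selection, 17 were at least 2-fold higher than in classical monocytes in both libraries, as were 2.65% of all 6066 measured genes. Against macrophages the count was 13 of 24, beside 4.09% of all measured genes. A measured gene had at least 20 UMIs over all members, values are UMIs per 1000000 UMIs of the summed cells (CPM), and log2 ratios carry a prior of 10 CPM. Members and classical monocytes were gated on different genes, and none of those gate genes is counted.

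Nr4a1 had 276 CPM in anti-CD40 members and 68.0 in anti-CD40 classical monocytes, and 421 CPM in isotype members and 151 in isotype classical monocytes. Pou2f2, which encodes the transcription factor Oct-2, stood at 692 CPM in anti-CD40 members against 133 in classical monocytes of that library, and at 684 against 247 in the isotype library. Eno3, an enolase better known from muscle, had 119 against 4.16 CPM in the anti-CD40 library and 105 against 1.59 in the isotype library. These genes put members above classical monocytes under both treatments. Adgre4, an adhesion receptor also called EMR4, had 142 against 9.71 CPM in the anti-CD40 library and 153 against 20.7 in the isotype library. Gngt2, a G protein gamma subunit, had 1101 against 182 CPM and 716 against 111 in the same order. Cx3cr1 did not set members apart: it stood at 145 CPM in anti-CD40 members and 88.8 in classical monocytes, and at 350.5 and 342 CPM in the isotype library.

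**Figure D1:**
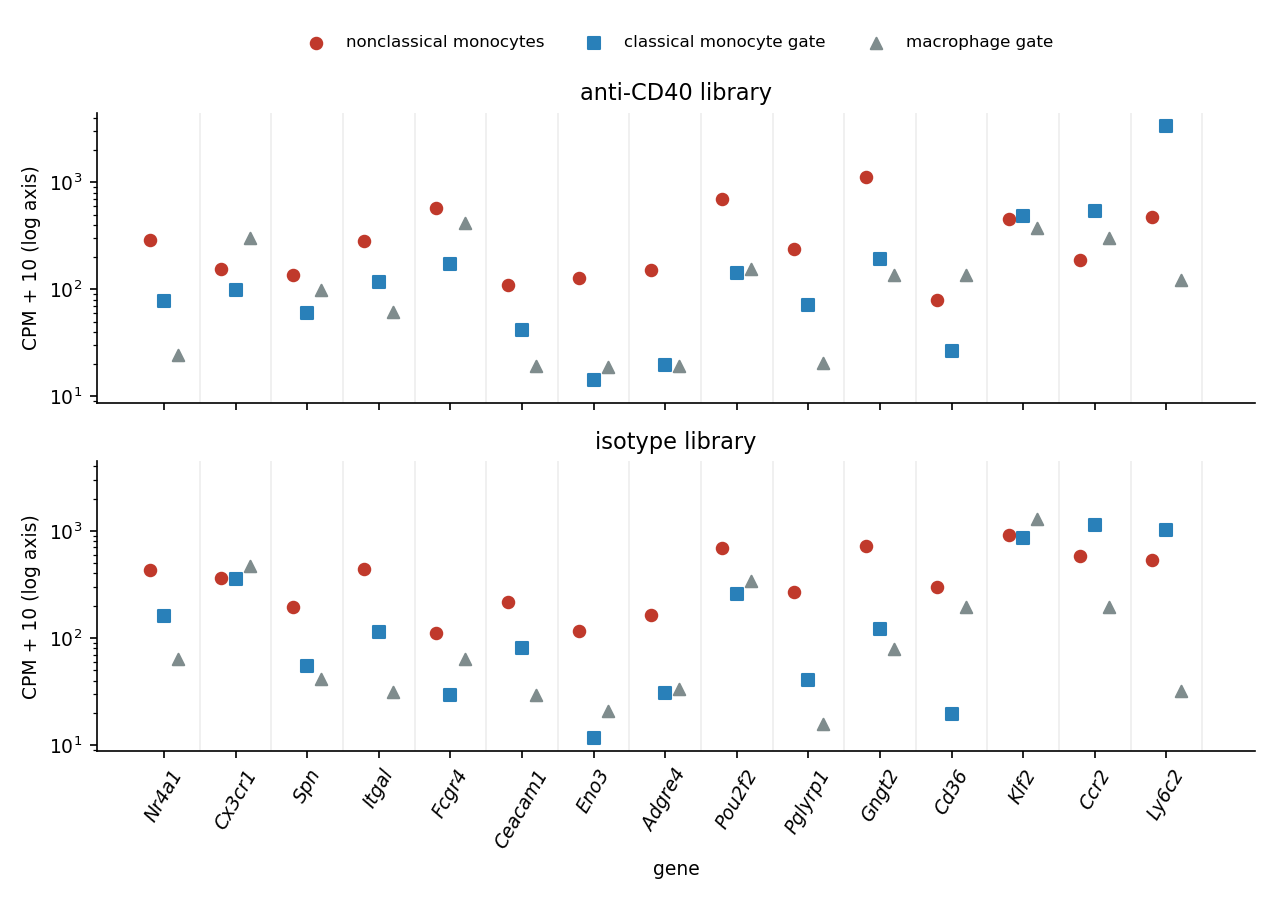
CPM + 10 on a log axis of 15 genes in nonclassical monocytes, classical monocytes and macrophages, summed over the cells of each gate, in the anti-CD40 library (top) and the isotype library (bottom). Nr4a1, Pou2f2, Eno3, Adgre4 and Gngt2 are highest in nonclassical monocytes in both libraries; Ccr2 and Ly6c2 helped to define the classical gate and are shown as a description.

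The genes highest over classical monocytes in both libraries also included Dusp16, a phosphatase of the stress kinases JNK and p38, Tgm2, a transglutaminase, Havcr2, which encodes the receptor TIM-3, Tcf7l2, a Wnt pathway transcription factor, and Cd300ld. Their log2 ratios over classical monocytes ran between 1.83 and 3.57 in the anti-CD40 library and between 1.91 and 2.56 in the isotype library. Gsn headed that list at 3.32 and 3.57, but 225 of 586 anti-CD40 UMIs and 770 of 1092 isotype UMIs of Gsn came from 1 cell in each library. Over macrophages the highest genes were Plac8, Hp, Pglyrp1, Gsr, Ifitm6, Nxpe4, Cd244a, F10, Mgst1 and Gngt2. Plac8 stood at 3108 CPM in anti-CD40 members against 178 in macrophages, and at 1095 against 29.9 in the isotype library. It did not separate the monocytes from each other, with 3452 CPM in anti-CD40 classical monocytes and 1106 in isotype ones.

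Between treatments, 275 of 6066 measured genes (4.53%) were at least 2-fold higher in anti-CD40 members and 362 (5.97%) at least 2-fold lower, with a median log2 ratio of -0.07. These shares are the background for every list count between treatments that follows. Genes that respond to interferon-γ, a cytokine of T and NK cells, filled the top of the ranking. Of 33 measured genes of an interferon-γ response list, 29 were at least 2-fold higher in anti-CD40 members, none was at least 2-fold lower, and the list's median log2 ratio was 2.70. The same list had medians of 2.17 in classical monocytes and 2.54 in macrophages.

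The list was also high cell by cell. It took a median of 1.51% of a cell's UMIs in anti-CD40 members (range 0.27 to 2.86) and 0.160% in isotype members (0 to 0.485). The groups barely overlapped: 53 of 59 anti-CD40 members lay above the highest isotype member, and 0 of 65 isotype members lay above the anti-CD40 median. Cells that met the nonclassical label well and less well had similar levels, with medians of 1.51% in the 39 anti-CD40 members that had at least 5 independent markers and 1.43% in the 20 that had fewer. The isotype medians of these subsets were 0.162% in the 49 isotype members with at least 5 markers and 0.15% in the other 16. NK cells, which hold free RNA of the same suspension beside their own, had medians of 0.497% in the anti-CD40 library and 0.232% in the isotype library. Neutrophils, gated on at least 6 UMIs of Csf3r and Retnlg, had medians of 1.84% and 0.0809%, so the rise was not particular to members. The part of free RNA was not tested. With only members of at least 5 independent markers, 30 of 31 measured genes of the list were at least 2-fold higher, and without the members that carried other cells' markers 27 of 27.

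**Figure D2:**
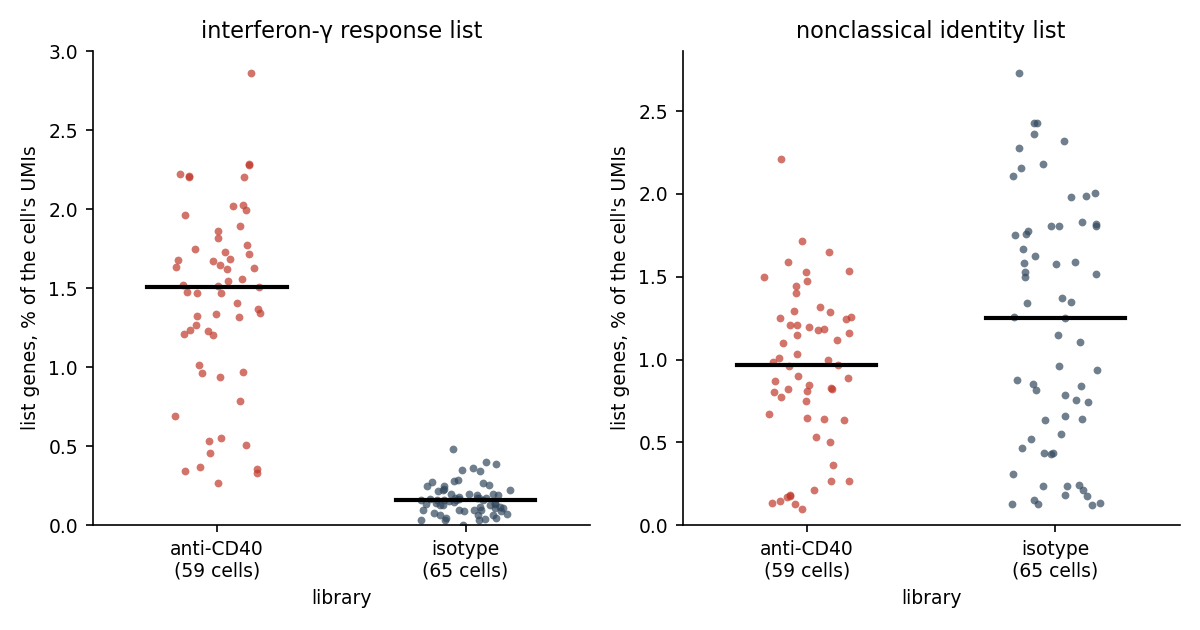
Share of each member's UMIs taken by the interferon-γ response list (left) and by the nonclassical identity list (right), with anti-CD40 members (red) left of isotype members (dark blue-grey); each point is 1 cell and the bar is the median. For the interferon-γ list the medians are 1.51% and 0.160%, while for the identity list, at 0.968% and 1.25%, the cells of both libraries overlap.

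Guanylate-binding proteins and immunity-related GTPases, which attack the vacuoles of intracellular pathogens, were among the highest genes. Gbp2 had 443 UMIs in 51 of 59 anti-CD40 members and 18 UMIs in 10 of 65 isotype members, or 1145 and 27.1 CPM, a ratio of 42.3 (26.4 to 72.0). Iigp1 had 391 UMIs in 54 anti-CD40 members and 15 UMIs in 2 isotype members, 13 of those 15 in 1 cell, and a ratio of 44.8 (26.8 to 80.8). Gbp4 had 302 CPM in anti-CD40 members and 6.02 in isotype members, Gbp8 had 191 and 4.51, and Igtp had 315 and 18.1. Gbp6 had 48 anti-CD40 UMIs and none in isotype members, at least 27.5-fold higher when 3 UMIs are set for the absent count. When each cell was thinned to 1000 UMIs, Gbp2 was found in 64.4% of 59 anti-CD40 members and 1.59% of 63 isotype members. NK cells thinned alike showed it in 2.56% and 0.952%, below the members of the anti-CD40 library (86.4% and 15.4% of members before thinning). Neutrophils thinned alike showed it in 88.1% and 0.877%, above the members of the anti-CD40 library.

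The serpins Serpina3g and Serpina3f, inhibitors of serine and cysteine proteases, were seen in anti-CD40 members only. Serpina3g had 206 UMIs in 43 of 59 anti-CD40 members and 0 in 65 isotype members, at least 118-fold higher. Serpina3f had 41 UMIs in 25 anti-CD40 members and 0 in isotype members, at least 23.5-fold higher. Upp1, uridine phosphorylase, had 167 UMIs in 35 anti-CD40 members and 0 in isotype members, at least 95.6-fold higher. Its log2 ratio was 5.46 in members, 4.65 in classical monocytes and 1.98 in macrophages. Irf1, an early transcription factor of the interferon-γ response, had 504 CPM in anti-CD40 members and 120 in isotype members, and Socs1, which dampens the signal, 109 and 7.52 CPM.

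Ly6a and Ly6i, members of the Ly6 family of surface proteins, were high in most anti-CD40 members. Ly6a, which encodes Sca-1, had 1762 CPM in anti-CD40 members and 67.7 in isotype members, a ratio of 26.0 (19.2 to 36.0), with 25 of its 45 isotype UMIs in 1 cell. Ly6i had 1617 and 46.6 CPM, a ratio of 34.7. The complement gene Cfb, factor B of the alternative pathway, had 457 CPM in anti-CD40 members and 7.52 in isotype members, a ratio of 60.8 (25.6 to 190). C4b, a component of the classical pathway, had 27 UMIs in 12 anti-CD40 members and 1 UMI in isotype members.

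Ccl5, a chemokine for T cells, and Dnase1l3, a secreted nuclease, had larger ratios in members than in the other gates. Ccl5 had 597 CPM in anti-CD40 members and 18.1 in isotype members, a ratio of 33.1 (18.6 to 64.9), in 31 and 10 cells, with at most 75 of 231 UMIs in 1 cell. Its log2 ratio was 4.44 in members, 0.52 in classical monocytes and 1.21 in macrophages. The gates differed mainly in the isotype library, where classical monocytes had 368 CPM and macrophages 163. Dnase1l3 had 72 UMIs in 28 anti-CD40 members and 0 in isotype members, at least 41.2-fold higher, with log2 ratios of 4.29 in members, 1.46 in classical monocytes and 3.46 in macrophages. With 1 library per treatment, these differences between gates were not tested.

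The interferon-γ induced chemokines were less clear than the rest of the list. Cxcl9, a ligand of CXCR3, had 87 UMIs in 22 anti-CD40 members, 51 of them in 1 cell, and 0 in isotype members. Thinned to 1000 UMIs, 11.9% of 59 anti-CD40 members had Cxcl9 (4.91 to 22.9, and 37.3% unthinned). That interval holds the shares of 12.3% in neutrophils (at least 6 UMIs of Csf3r and Retnlg) and 8.55% in NK cells of that library, so a share above that of these cells was not detectable after thinning. In isotype members 0 of 63 thinned cells had a Cxcl9 UMI, and 3 counts would be 4.76% of cells with a UMI at that depth. Cxcl10, a further CXCR3 ligand, had 59.4 CPM in anti-CD40 members and 52.7 in isotype members, a ratio of 1.13 (0.637 to 1.97). Its 23 anti-CD40 UMIs lay in 16 cells and its 35 isotype UMIs in 4 cells, 29 of them in 1 cell. In macrophages the log2 ratios were 6.98 for Cxcl9 and 2.60 for Cxcl10, against 4.55 and 0.15 in members.

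Promoter windows of genes that moved together are shown because interferon-γ acts on known promoter motifs. RefSeq windows (GRCm38.p6, 250 bases before to 50 after the start) were found for 22 of the 33 measured genes of the list. Capitals mark matches to the GAS letters TTCNNNGAA, the interferon-γ activated site, which reads the same on both strands, or to GAAANNGAA on either strand, a core of the elements bound by interferon regulatory factors.
Gbp2, chr3:142620413-142620712, + strand, 1 GAAANNGAA match: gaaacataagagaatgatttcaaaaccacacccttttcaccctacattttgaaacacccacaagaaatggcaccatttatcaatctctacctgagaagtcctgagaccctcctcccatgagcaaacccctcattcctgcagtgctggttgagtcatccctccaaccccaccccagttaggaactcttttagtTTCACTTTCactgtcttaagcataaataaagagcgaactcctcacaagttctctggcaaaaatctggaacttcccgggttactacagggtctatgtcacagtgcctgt
Serpina3g, chr12:104235897-104236196, + strand, 1 TTCNNNGAA match: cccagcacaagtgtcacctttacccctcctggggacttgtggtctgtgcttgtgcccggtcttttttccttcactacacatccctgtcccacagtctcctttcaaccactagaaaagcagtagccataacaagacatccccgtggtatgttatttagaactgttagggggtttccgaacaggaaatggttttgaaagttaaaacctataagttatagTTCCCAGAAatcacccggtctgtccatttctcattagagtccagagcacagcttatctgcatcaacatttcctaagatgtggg
Cd274, chr19:29367188-29367487, + strand, 1 GAAANNGAA match: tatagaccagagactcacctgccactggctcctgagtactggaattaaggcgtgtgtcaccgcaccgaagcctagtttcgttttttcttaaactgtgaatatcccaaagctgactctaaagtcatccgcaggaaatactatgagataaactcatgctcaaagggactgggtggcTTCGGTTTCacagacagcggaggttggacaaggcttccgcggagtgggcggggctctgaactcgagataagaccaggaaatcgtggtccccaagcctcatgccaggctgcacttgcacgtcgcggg
Fcgr4, chr1:171018676-171018975, + strand, 1 GAAANNGAA match: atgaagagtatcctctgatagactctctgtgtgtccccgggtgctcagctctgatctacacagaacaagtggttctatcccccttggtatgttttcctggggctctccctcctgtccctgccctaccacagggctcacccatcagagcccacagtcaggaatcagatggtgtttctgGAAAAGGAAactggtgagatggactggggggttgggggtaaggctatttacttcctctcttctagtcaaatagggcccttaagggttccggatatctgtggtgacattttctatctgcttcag

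The GAS letters were in 11 of these 22 promoters, against 9.55% of 27025 genes with a window. The letters GAAANNGAA were in 13 of 22, against 9.76%, and at least 1 of the 2 motifs was in 18 of 22, against 17.9%. No promoter of the list had the 2 motifs overlapping. Among 17 windows of the 24 measured nonclassical identity genes, 0 held the GAS letters and 2 held GAAANNGAA. A match is a string of letters in a window and says nothing of binding in these cells.

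Antigen presentation to CD8 T cells and the antiviral genes were higher as well. Of 22 measured genes of MHC class I presentation, 15 were at least 2-fold higher in anti-CD40 members and none was at least 2-fold lower, with a median log2 ratio of 1.68. H2-K1, a classical class I chain, had 2925 CPM in anti-CD40 members and 1145 in isotype members. H2-Q7 and H2-T22, nonclassical class I chains, had ratios of 6.58 (4.99 to 8.78) and 6.65 (4.45 to 10.2). The immunoproteasome subunit Psmb9 had 649 and 114 CPM, and the peptide transporter Tap1 429 and 104 CPM. Calr, a chaperone of class I folding, had the list's lowest log2 ratio at -0.45.

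Of 24 measured type I interferon-stimulated genes, 17 were at least 2-fold higher and none was at least 2-fold lower, with a median of 1.44. Several genes of this list also respond to interferon-γ. Zbp1, a sensor of unusual nucleic acids, had 380 CPM in anti-CD40 members and 51.1 in isotype members, and Ifit2, which blocks viral translation, had 33 UMIs in 28 anti-CD40 members and 1 UMI in isotype members. Irf7, the factor that amplifies type I interferon, had 491 and 87.2 CPM. Its log2 ratio was 2.36 in members, 0.75 in classical monocytes and 3.07 in macrophages. Per cell the list separated the treatments less, with 1 of 59 anti-CD40 members above the highest isotype member.

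Class II presentation, by which cells show antigen to CD4 T cells, was higher in the median member, while the summed counts differed little. The list of class II and costimulation genes took a median of 1.73% of a cell's UMIs in anti-CD40 members (0.116 to 7.75) and 0.337% in isotype members (0.0127 to 9.91). Of 59 anti-CD40 members 4 lay below the isotype median, and 12 of 65 isotype members lay above the anti-CD40 median. NK cells had medians of 0.151% in the anti-CD40 library and 0.0753% in the isotype library, and neutrophils of 0.372% and 0.114%. Classical monocytes had 1.37% and 0.295%, and macrophages 5.10% and 3.11%, so the rise was not particular to members. The part of free RNA in it was not tested. Summed over all members, 0 of 13 measured genes were at least 2-fold higher and 1 was lower, with a median log2 ratio of 0.24. B cell and conventional dendritic cell genes, whose cells are rich in class II, were found in 0 and 0 anti-CD40 members and in 7 and 3 isotype members by the count of at least 3 markers. Without members holding 3 markers of any other class, 7 of 11 measured genes were at least 2-fold higher, with a median of 1.15. The count was 7 of 10 with at least 2 different marker genes (median 2.22), 6 of 11 with at least 5 independent markers (1.14) and 6 of 7 with cells thinned to 2000 UMIs (1.46). Other settings left few or no genes at 2-fold. The count was 0 of 11 with a marker sum of at least 3 (0.08) and 0 of 11 with a C1q sum of at most 3 (0.17). It was 0 of 13 when 500 genes were required and the mitochondrial limit was 5% (0.21). With cells weighted equally it was 1 of 13 (0.65), and without the deepest 5% of members 2 of 11 (0.61). The rise in the summed counts thus depended on the setting. Cd83, a marker of activated antigen-presenting cells, was the lower gene of the sum, with 12.9 CPM in anti-CD40 members and 58.7 in isotype members.

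**Figure D3:**
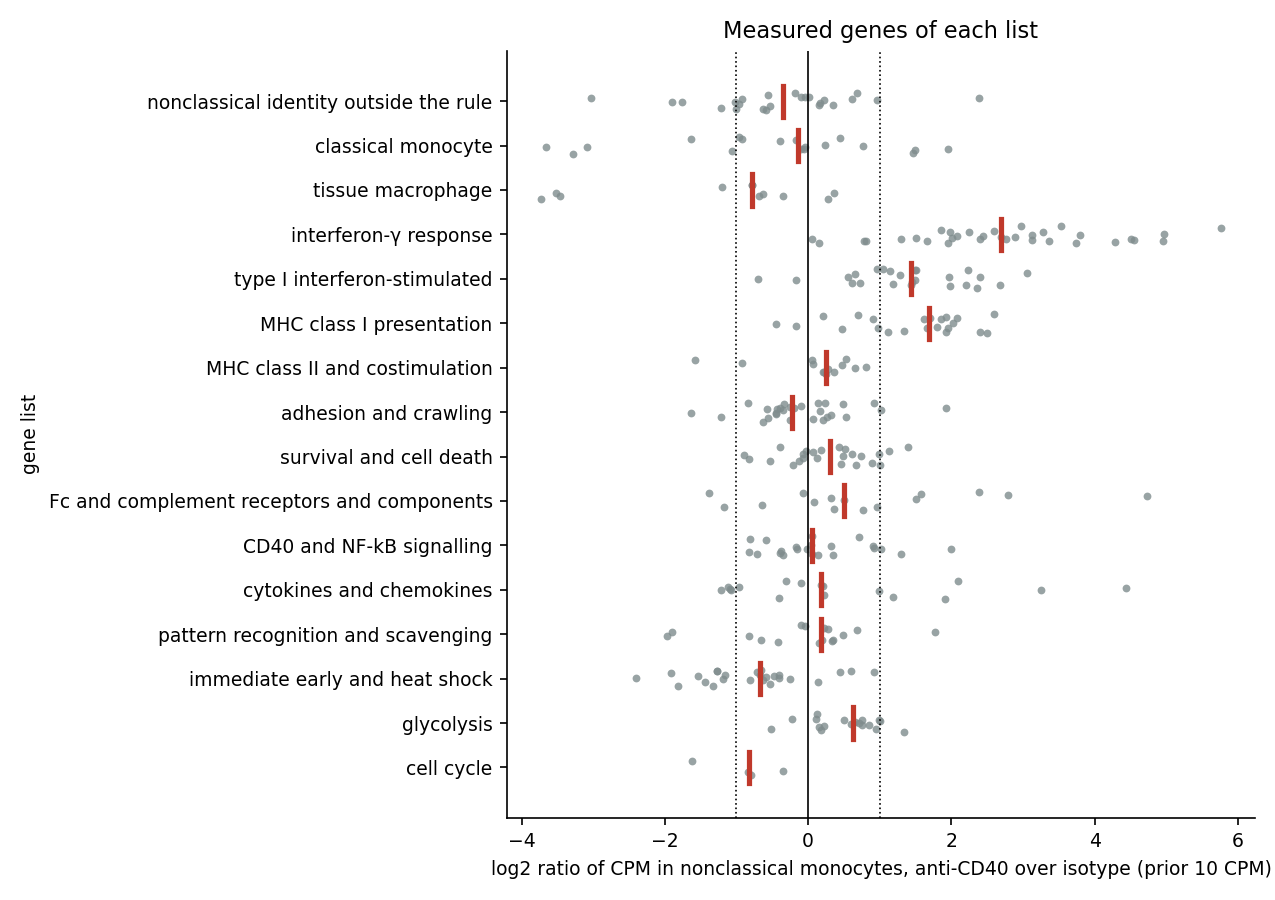
Log2 ratio of CPM, anti-CD40 over isotype, of each measured gene (points) of 16 lists in nonclassical monocytes, with the list median in red and dotted lines at 2-fold. The medians of the interferon-γ, type I interferon and MHC class I lists lie right of 0, at 2.70, 1.44 and 1.68. The median of the immediate early and heat shock list lies left of 0, at -0.67.

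Fcgr4 was the 1 gene of the nonclassical identity list that was at least 2-fold higher after anti-CD40. It had 220 UMIs in 47 of 59 anti-CD40 members and 67 UMIs in 33 of 65 isotype members, or 568 and 101 CPM, a ratio of 5.64 (4.27 to 7.53). After thinning it was found in 40.7% of anti-CD40 members and 12.7% of isotype members, in 3.42% of anti-CD40 NK cells and in 40.3% of anti-CD40 neutrophils, which are known to make it (79.7% and 50.8% of members before thinning). The gene was also higher in classical monocytes, with a log2 ratio of 2.57, and in macrophages, with 2.69, beside 2.38 in members. Fcgr1, the high-affinity Fc receptor, had 121 CPM in anti-CD40 members and 36.1 in isotype members. In the list of Fc and complement genes 5 of 15 were higher and 2 were lower. Of those 5, Serping1, the C1 inhibitor, came from 3 anti-CD40 and 2 isotype cells, with at most 53 of 115 and 50 of 62 UMIs in 1 cell. The lower ones were Cd55, which dissociates complement convertases, and Fcgrt, the recycling Fc receptor.

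The rest of the identity list leaned lower, with 6 of 24 genes at least 2-fold lower and a median log2 ratio of -0.35. Cx3cr1, the fractalkine receptor, had 56 UMIs in 28 of 59 anti-CD40 members and 233 UMIs in 50 of 65 isotype members, or 145 and 350.5 CPM, a ratio of 0.413 (0.303 to 0.555). Its log2 ratio of -1.22 lay between -1.95 and -0.34 over the alternatives, the weakest value being that without the C1q limit. Klf4, a factor of monocyte differentiation, had 140 and 498 CPM, Klf2 of the same family had 447 and 907, and Hes1, a Notch target, had 59.4 and 131. Cx3cr1, Klf2 and Klf4 were lower in classical monocytes and macrophages too, with Klf4 log2 ratios of -1.76 in members, -1.54 in classical monocytes and -1.91 in macrophages. The other 2 lower genes rested on few cells: 96 of 192 isotype UMIs of Cd36, a lipid scavenger receptor, and 137 of 202 of Fabp4, a fatty acid-binding protein of endothelium, lay in 1 cell each.

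Nr4a1 itself is also a gene of the immediate early and heat shock list described below, whose median log2 ratio was -0.67. Nr4a1 had 276 CPM in anti-CD40 members and 421 in isotype members, a ratio of 0.656 (0.520 to 0.823). Its log2 ratio of -0.59 ranged from -2.18 without the C1q limit to -0.51 over the alternatives, so whether it was 2-fold lower depended on the members. Itgal, the CD11a chain of LFA-1, had 271 and 427 CPM, and Spn, which encodes CD43, had 127 and 187, with lowest log2 ratios of -1.70 and -1.30, each without the members that carried other cells' markers. Pou2f2 had 692 and 684 CPM, Cebpb, a factor that these monocytes need to survive, had 1566 and 1406, and Adgre4 had 142 and 153. The ratios of these last 3 were 1.01, 1.11 and 0.926, but they too depended on the members, with log2 ranges of -1.15 to 0.10, -0.82 to 0.32 and -1.43 to -0.027 over the alternatives. Per cell, the identity list took a median of 0.968% of UMIs in anti-CD40 members and 1.25% in isotype members, and 35 of 65 isotype members lay above the anti-CD40 median. Neutrophils had medians of 0.855% and 0.935%, so the summed list did not set members well apart from neutrophils. The number of identity genes at least 2-fold lower depended on the members: it was 10 of 24 when at least 2 different marker genes were required and 11 of 24 without the members that carried other cells' markers.

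**Figure D4:**
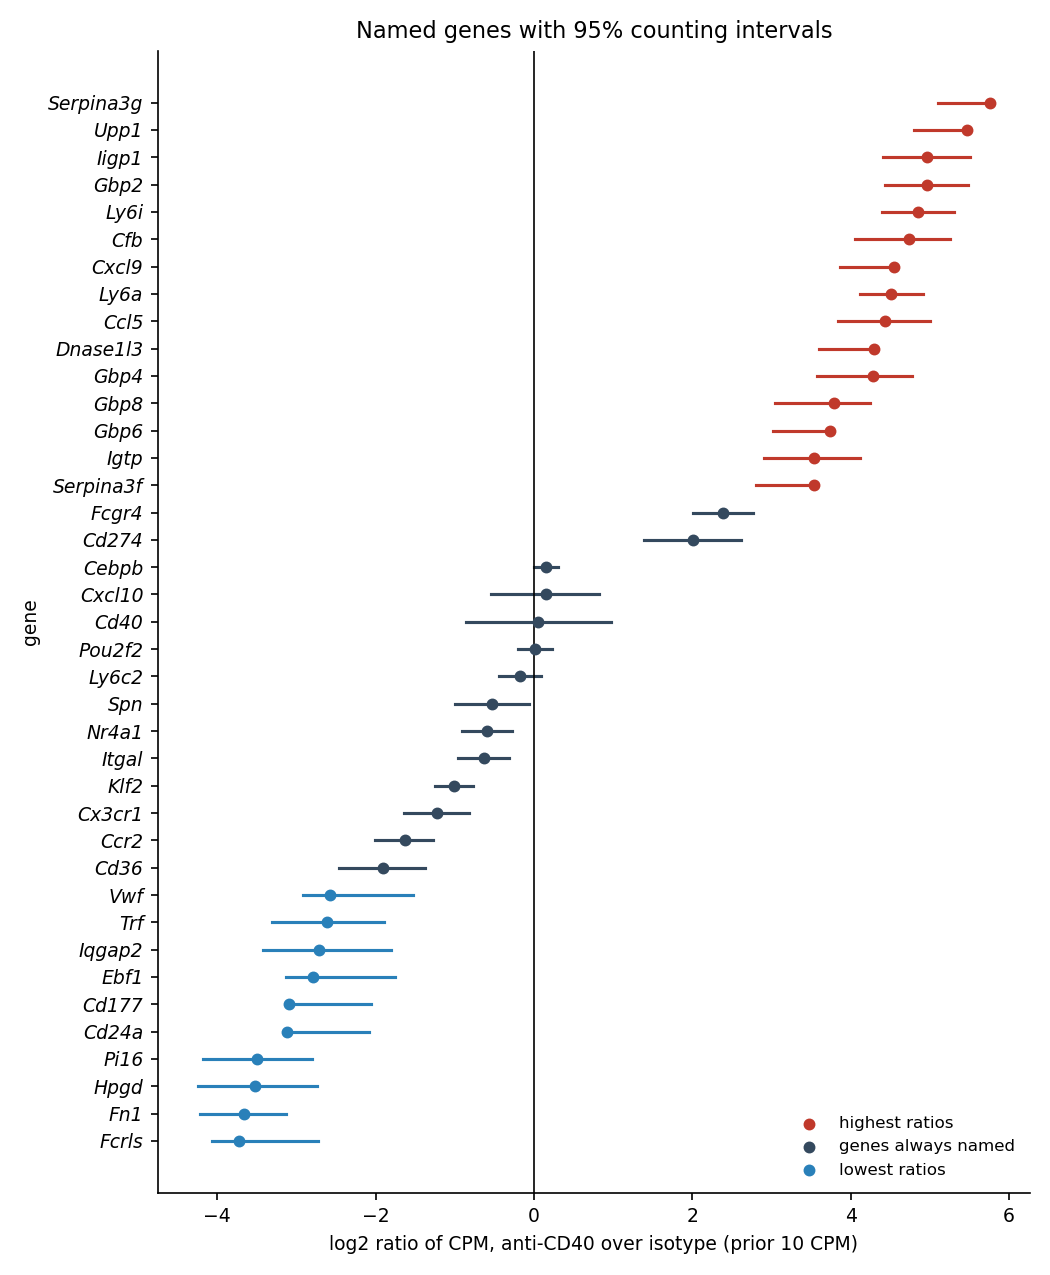
Log2 ratio of CPM, anti-CD40 over isotype (x axis), of the 15 highest and 10 lowest named genes and of 14 genes named whatever their value, with exact 95% counting intervals as lines. Cd40, Cxcl10 and Pou2f2 have intervals that include 0, whereas Fcgr4 and Cd274 lie above 0 and Cx3cr1, Ccr2 and Klf2 below it.

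Most genes of the CD40 pathway differed by less than 2-fold in these cells, and Cd40 itself was scarce. Cd40 had 8 UMIs in 6 anti-CD40 members and 13 UMIs in 12 isotype members, a ratio of 1.06 (0.380 to 2.75), while its log2 ratio was 1.69 in macrophages. A difference within that interval was not detectable at this depth. Of 22 measured genes of CD40 and NF-κB signalling 3 (13.6%) were higher and none was lower, beside 4.53% and 5.97% of all measured genes, with a median of 0.05. These were Tnfaip2, a TNF-induced gene, at 773 CPM in anti-CD40 members and 187 in isotype members, Relb, the subunit of noncanonical NF-κB, at 77.5 and 25.6, and Traf1, a receptor adaptor, at 238 and 113. Relb had log2 ratios of 1.30 in members, -0.09 in classical monocytes and 0.08 in macrophages. Cd274, which encodes the inhibitory ligand PD-L1, had 61 UMIs in 33 anti-CD40 members and 21 UMIs in 12 isotype members, a ratio of 4.99 (2.995 to 8.63).

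Among 17 measured cytokine and chemokine genes 5 were higher and 4 lower. Il18bp, which neutralises interleukin-18, had 114 CPM in anti-CD40 members and 3.01 in isotype members, and Il1rn, the interleukin-1 receptor antagonist, had 101 and 19.6. Il1b, which encodes interleukin-1β, had 576 and 247 CPM, a ratio of 2.34 (1.90 to 2.88). Its log2 ratio was 1.19 in members, 1.15 in classical monocytes and -1.07 in macrophages. Ccl12, a chemokine for CCR2-bearing cells, completed the 5 with Ccl5. Tgfb1, which encodes TGF-β1, was lower at 196 and 438 CPM, and Ccl2, the main CCR2 ligand, at 46.5 and 122 CPM with 35 of its 81 isotype UMIs in 1 cell. The other lower genes were Pdgfb and Ccl9. Il6, Il10, Il12a, Il12b and Il15 were among the 13 of 30 list genes that stayed under 20 UMIs.

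Most adhesion, survival and metabolism genes differed by less than 2-fold. In the list of adhesion and crawling 2 of 28 were higher and 2 lower (7.14% each), near the 4.53% and 5.97% of all measured genes. Cd300lf, an inhibitory receptor for phospholipids, had 142 CPM in anti-CD40 members and 30.1 in isotype members. The lower genes were Cx3cr1 and Ccr2. Ccr2, the receptor that draws classical monocytes out of the marrow, had 69 UMIs in 18 anti-CD40 members and 381 UMIs in 35 isotype members, a ratio of 0.311 (0.237 to 0.403). Without the members that carried other cells' markers its log2 ratio was 0.39, against -1.63 with them, but Ccr2 is itself 1 of the 6 classical monocyte markers by which those cells were left out. Of 24 survival genes 2 were higher: Bcl2a1a, an antiapoptotic BCL2 relative, at 199 and 69.2 CPM, and Casp1, the inflammasome caspase, at 163 and 69.2 CPM. Of 18 glycolysis genes 2 were higher, the hexokinase Hk3 and the glucose transporter Slc2a1, with a list median of 0.63. Of 24 cell cycle genes 20 stayed under 20 UMIs, and 19 of the 20 UMIs of Ccnb2 lay in 1 isotype cell.

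Immediate early and heat shock genes, which enzymatic digestion is known to induce, were the list most often lower: 10 of 25 were at least 2-fold lower and none was at least 2-fold higher, with a median of -0.67. Fos had 532 CPM in anti-CD40 members and 1297 in isotype members, Jun 633 and 1733, and Hspa1a, an inducible heat shock protein, 512 and 1255. The medians were -1.05 in classical monocytes and -1.08 in macrophages. The recorded digestion was the same for both libraries, 20 min at 37 °C. Any unrecorded difference between the preparations cannot be told apart from treatment. Pattern recognition genes had 1 of 16 higher, Trem3, and 2 lower, Cd36 and Cd93.

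In the classical monocyte list 3 of 18 genes were higher and 5 lower. Plac8 stood at 3108 CPM in anti-CD40 members and 1095 in isotype members, Gpr141, an orphan receptor, at 690 and 171, and Ms4a4c at 413 and 143. Ly6c2, which encodes Ly-6C, had 179 UMIs in 25 anti-CD40 members and 348 UMIs in 17 isotype members, a ratio of 0.884 (0.734 to 1.06), with 65 and 115 UMIs in 1 cell. Its log2 ratio lay between -1.07 and 3.91 over the alternatives, the highest without members holding markers of other classes, a list that includes Ly6c2, so no direction is given. In the classical monocytes its log2 ratio was 1.73, though it helped to gate them. S100a8 and S100a9, the calprotectin genes among the neutrophil markers, gave all 144 neutrophil marker UMIs in anti-CD40 members and 9 and 24 of the 39 in isotype members, where Mmp8 gave the other 6. Cxcr2, Ngp, Camp and Ltf were at 0 in both.

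Several of the lowest genes rested on few cells or on genes of other cell types. Fcrls, a scavenger-like receptor of resident macrophages, had 1 UMI in anti-CD40 members and 104 in isotype members, 68 of them in 1 cell. Pi16, a fibroblast gene, had 11 UMIs in anti-CD40 members and 281 in isotype members, 239 of them in 1 cell, and Vwf, of endothelium and platelets, had 1 and 43, 36 of them in 1 cell. Fn1, fibronectin, had 23 UMIs in 6 anti-CD40 members and 578 UMIs in 22 isotype members, but its log2 ratio of -3.66 became 2.69 without the members that carried other cells' markers. Cd24a, Cd177 and Ebf1 were seen in 0, 0 and 1 anti-CD40 members and in 10, 14 and 11 isotype members. These genes cannot be assigned to nonclassical monocytes from these data.

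Hpgd, Trf and Iqgap2 were lower across many members. Hpgd, which breaks down prostaglandins, had 7 UMIs in 5 anti-CD40 members and 208 UMIs in 44 isotype members, a ratio of 0.0578 (0.0230 to 0.121), with at most 25 UMIs in 1 cell. Trf, transferrin, had 11 UMIs in 8 anti-CD40 members and 149 UMIs in 34 isotype members. Macrophages showed the same direction for both, with log2 ratios of -3.13 for Hpgd and -2.43 for Trf. Iqgap2, a scaffold of the cytoskeleton, had 4 UMIs in 4 anti-CD40 members and 82 UMIs in 33 isotype members. Apoe, the lipid carrier of macrophages, had 58 UMIs in 30 anti-CD40 members and 1163 UMIs in 64 isotype members. It also had a log2 ratio of -2.49 in macrophages, whose free RNA can reach members, and the part of that RNA was not tested.

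Surface tags, a readout the selection did not use, were read as UMIs per 1000000 tag UMIs. In all, 144 tags exceeded 2 times the highest of 9 control antibodies in at least 1 library, and of these 17 (11.8%) were at least 2-fold higher and 70 (48.6%) at least 2-fold lower in anti-CD40 members. As so many tags were lower, per-cell UMIs are given beside the ratios. Members had medians of 1795 tag UMIs in the anti-CD40 library and 1691 in the isotype library, and the sums were 110790 and 204926, so few isotype cells held much of the isotype sum. The control antibodies gave 44 UMIs in anti-CD40 members and 178 in isotype members.

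CD274, the PD-L1 protein, had a median of 54 UMIs per cell in anti-CD40 members and 4 in isotype members, and 56 of 59 anti-CD40 members lay above the isotype median. Its ratio was 7.92 (7.33 to 8.57), beside 4.99 for its transcript. Ly-6A/E, the Sca-1 protein, had medians of 50 and 5 UMIs and a ratio of 5.10, and all 59 anti-CD40 members lay above the isotype median. The interferon-induced transcripts Cd274 and Ly6a were thus high in both readouts. CD274 tag ratios were 10.8 in classical monocytes and 17.7 in macrophages, and Ly-6A/E tag ratios 12.5 and 10.2. Neutrophils had medians of 19 and 1 UMIs for CD274 and of 22 and 4 for Ly-6A/E. NK cells had 5 and 3 and 16 and 2 in the same order, so neither rise was particular to members. CD1d, which presents lipids to NKT cells, had medians of 13 and 2 UMIs, and 23 anti-CD40 members lay above the highest isotype member. Its ratio was 9.76 (8.38 to 11.4) in members, 2.79 in classical monocytes and 0.625 in macrophages. The costimulatory ligands CD80 and CD86 had medians of 5 and 1 and of 7 and 4 UMIs, and CD40 itself medians of 5 and 2 UMIs with a ratio of 1.91. CD54, the adhesion molecule ICAM-1, had medians of 181 and 22 UMIs and was chosen after its values were seen.

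CX3CR1 was lower on the surface as in RNA, with a median of 1 UMI per cell in anti-CD40 members and 4 in isotype members and a ratio of 0.522 (0.417 to 0.649). The protein exceeded the anti-CD40 median in 53 of 65 isotype members. Relative to the control antibodies, which were fewer in anti-CD40 members, the log2 ratio of CX3CR1 was 0.19, so its direction depended on the scale. CD43 had medians of 120 and 117 UMIs and CD11a of 126 and 98 UMIs, so both proteins that mark these monocytes were present under both treatments. Their ratios of 1.38 and 1.92 turned below 1 when at least 2 different marker genes were required. In NK cells CD43 had medians of 78.5 and 100 UMIs and CD11a of 94 and 58. In neutrophils the medians were 89.5 and 103.5 for CD43 and 62 and 109 for CD11a, so neither tag was particular to members. CD11b, an integrin chain of myeloid cells, had medians of 156 and 211 UMIs although its ratio was 1.16. Ly-6C had medians of 5 and 3 UMIs and a ratio of 1.01, and CD11c, an integrin chain common on dendritic cells, had 16 and 5 UMIs and a ratio of 1.75. CD115, the CSF1 receptor, stayed under 2 times the highest control antibody, with 9 tag UMIs over all anti-CD40 members and 44 over all isotype members. Per 1000000 tag UMIs it lay below the highest control in the anti-CD40 library and stood at 215 against 200.2 for that control in the isotype library.

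Clones to 1 protein did not always match. The tag named F4_80, a macrophage protein, had medians of 0 and 1 UMI and a ratio of 0.396, and F4_80-b had medians of 87 and 15 UMIs and a ratio of 0.983. CD62L, the homing receptor of classical monocytes and lymphocytes, had medians of 0 and 1 UMI and a ratio of 0.0880. CD36 had medians of 1 and 2 UMIs and a ratio of 0.70. F4_80, CD62L and CD36 were thus near 0 on most members.

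Several tags at the ends of the ranking came from few cells. CD8b had the highest ratio, 16.1, but a median of 0 in both libraries and 89 of its 122 anti-CD40 UMIs in 1 cell. CD8a, CD90-2 and CD5, further lymphocyte tags, had ratios of 5.32, 5.27 and 4.09, and 27 of 46, 87 of 225 and 122 of 157 anti-CD40 UMIs in 1 cell. CD201 had the lowest ratio, with 2067 of 2146 isotype UMIs in 1 cell, and CD55 had 1425 of 2312. The B cell tags IgD, CD79b and CD45R had medians of 0 in anti-CD40 members and 2, 0 and 0 in isotype members. IgD was also lower in the classical monocytes and macrophages of the anti-CD40 library, at ratios of 0.00800 and 0.00781, so it was low in every phagocyte gate compared.

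**Figure D5:**
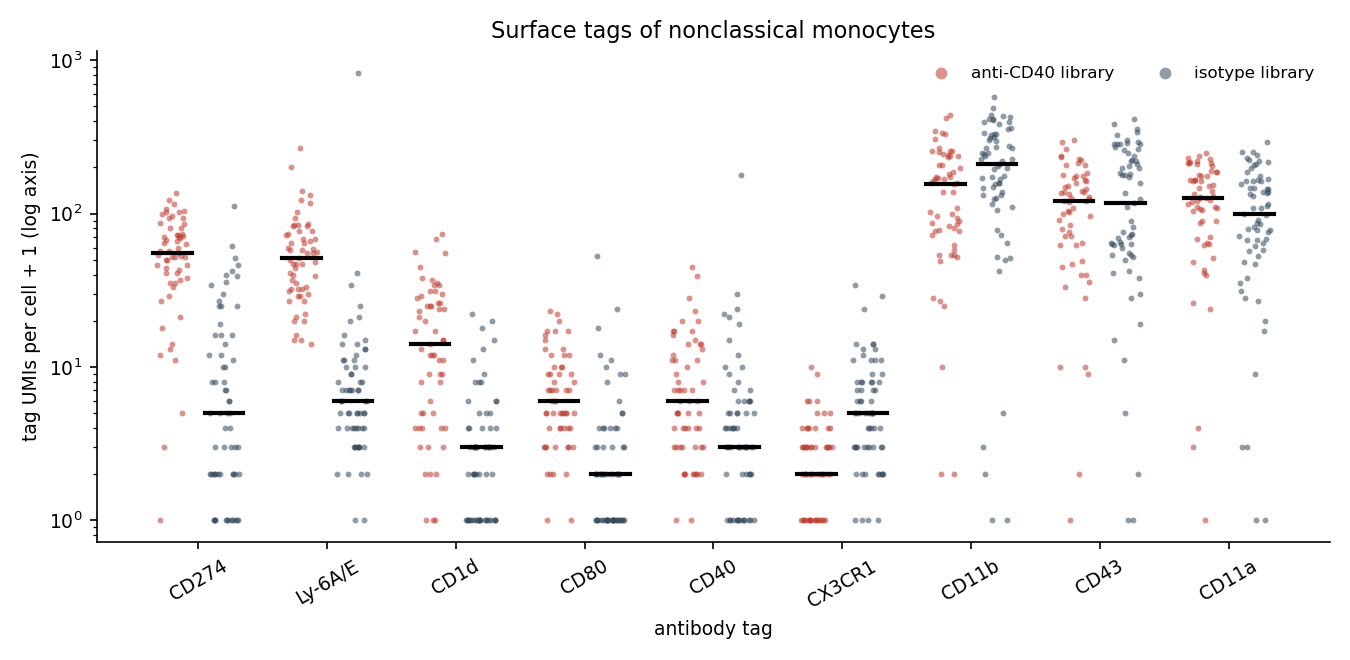
Tag UMIs per cell + 1 on a log axis for 9 antibody tags on nonclassical monocytes, with anti-CD40 cells (red) left of isotype cells (dark blue-grey) and bars at the medians. CD274, Ly-6A/E and CD1d have medians of 54, 50 and 13 UMIs in anti-CD40 members and 4, 5 and 2 in isotype members, whereas CX3CR1 is lower in anti-CD40 members.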

How the data were processed

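Per the file headers, the matrices were made with Cell Ranger 6.0.1, and per the submitters' processing notes Cell Ranger 3 and Seurat 3 were used with mm10 and GRCh38, whose roles are not stated. The authors deposited raw UMI counts per cell barcode for genes and antibody tags, with no normalization and no cell types. Per the labels' protocols, capture used the 10x Genomics Chromium Single Cell 5′ reagents, while the deposited tag names carry TotalSeqA. Barcodes were selected before deposit, by a setting not given in the sources used here.

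From these counts, 4278 of 7087 anti-CD40 and 2558 of 4908 isotype barcodes were kept, with 47485251 and 22687435 gene UMIs. Counts were summed over the members of each library and set to CPM. Ratios carry exact conditional binomial intervals and shares Clopper-Pearson intervals (scipy 1.17.1, Python 3.11.15), while TMM factors came from edgeR 4.0.16. Each treatment is 1 library, so no test across treatments was possible and cells were not used as replicates. The members, gene lists and rule for named genes were chosen with earlier results of these data known. Named genes were the 15 highest and 10 lowest log2 ratios with at least 30 UMIs in 10% of members, the 10 highest over each other gate, the 2 highest and 2 lowest of each list, and 15 genes always named; genes of the selection, of the gates and of other cell types were passed over in the ranking. Those that carry a result are described. A gene at 0 was given a floor of 3 UMIs over the members of that library. Symbols of the lists without a match in the files are not analysed here, and a few measured items are not reported here. The calculations were tested on simulated counts that held counting error alone, without differences between cells. The alternatives tried were 18 planned settings and 3 added after the data were seen.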

Additional observations from a re-analysis of the deposited data

Results flagged for a closer look

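Some barcodes left out of the kept cells also met the UMI sums that choose nonclassical monocytes. They were 1 barcode in the anti-CD40 library, with 13.4% mitochondrial UMIs, and 7 barcodes in the isotype library, with between 13.1% and 26.8%. They attracted attention because they are a signal in data that the comparisons do not use. The 7 isotype barcodes had medians of 1520 UMIs and 4 of the 10 independent markers, and the anti-CD40 barcode had 2199 UMIs and 0 of them. Their part in the lower share after anti-CD40 was not tested beyond the alternative filters given for it.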

How the results depend on the processing

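Each treatment is 1 library, so depth and the number of members (59 and 65) limit every value. No paired analysis was possible because each treatment has 1 library and the labels give no replicate numbers. Where a value moved, the cause was not tested, apart from settings that by construction test fewer genes or cells. The settings without a C1q limit and with at least 5 independent nonclassical markers were chosen after seeing the data, as was a C1q limit of 20 UMIs.

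The difference in share, in percentage points, was -1.99 when 500 genes were required and the mitochondrial limit was 5%, -0.33 without members holding 3 markers of another class, -4.09 of mononuclear phagocytes, and 0.63 without the C1q limit. The 275 higher genes of 6066 measured (4.53%) became 120 of 1039 (11.5%) with cells thinned to 2000 UMIs, 138 of 6066 (2.27%) with a prior of 50 CPM and 109 of 1638 (6.65%) with a minimum of 100 UMIs. The 362 lower genes (5.97%) became 108 of 1039 (10.4%), 74 of 6066 (1.22%) and 91 of 1638 (5.56%) in that order, 583 of 6066 (9.61%) with a prior of 1 CPM and 590 of 12958 (4.55%) with a minimum of 1 UMI. The interferon-γ median of 2.70 became 3.33 with thinning and 1.77 with a prior of 50 CPM, and the identity median of -0.35 became -1.11 without the C1q limit.

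Genes whose ratio was near 1 or rested on few cells took both signs over the alternatives: the log2 range was -1.23 to 3.16 for Cxcl10, -0.95 to 1.69 for Cd40, -1.07 to 3.91 for Ly6c2, -1.15 to 0.10 for Pou2f2, -1.06 to 0.47 for Eno3, -1.66 to 3.36 for Gsn, -1.36 to 0.48 for Gsr, -1.08 to 1.37 for Mgst1, -1.57 to 0.27 for Nxpe4 and -1.06 to 1.13 for Cd244a. The following log2 ratios and medians changed direction. Without the C1q limit they were 0.34 for Calr, 0.35 for Ccl2, -0.82 for Cebpb, -0.64 for Dusp16, -0.44 for F10, 0.11 for Fabp4, -0.62 for Gngt2, -0.22 for Havcr2, -0.93 for Hp, -0.30 for Ier3, -0.34 for Nr4a2, 1.16 for the cell cycle median, and for tags -0.34 (CD11a), -0.69 (CD11b), 0.82 (CD36), -0.62 (CD43) and 0.30 (CX3CR1). With at least 2 different marker genes they were 1.28 for Ccl2, -0.34 for Cebpb, -0.026 for Ier3, -0.39 for Nr4a2, and for tags -0.022 (CD11a), -0.73 (CD11b), 0.55 (CD201) and -0.55 (CD43). Without members holding 3 markers of another class they were 0.44 for Ccl2, 0.39 for Ccr2, -0.54 for Cebpb, 0.64 for F13a1, 2.69 for Fn1, -0.25 for Gngt2, and for tags -0.22 (CD11a), -0.69 (CD11b), 0.78 (CD201), 0.019 (CD36) and -0.80 (CD43). With at least 5 independent markers the tags were -0.38 (CD11b), 0.20 (CD201) and -0.33 (CD43). With the stricter cell filter Hspb1 was 0.32 and tag CD11b -0.33. With cells weighted equally Cebpb was -0.077, and with a marker sum of at least 3 Nr4a2 was -0.038 and tag CD11b -0.16. With thinning Ccl2 was 0.80, Cd24a 1.51, Cebpb -0.27 and the cell cycle median 0.037. The CD11b tag was -0.22 by mean centred log ratio, and relative to control antibodies CD36 was 0.62 and CX3CR1 0.19.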
